A study of Mus musculus with 20 samples.

Results

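Expression of 43 genes for secreted and membrane-bound metalloproteinases of the extracellular matrix and their inhibitors was examined in mouse melanomas from a line with and a line without deletion of the stress-activated kinase p38α in melanocytes. The members were every named gene whose symbol is Mmp, Adamts or Timp followed directly by digits, which gave 21 matrix metalloproteinases, 18 ADAMTS proteases and 4 tissue inhibitors of metalloproteinases among 19504 named genes on the array. Tumors were induced in Tyr::CreERT2;BrafCA/CA;p38αlox/lox mice, called B;p38α and also written p38α-/- in the labels, and in Tyr::CreERT2;BrafCA/CA mice, called B. In both lines 4-hydroxytamoxifen (5 mg/ml in acetone) was put on the skin on postnatal days 2.5 and 3.5, so that Cre recombinase under the tyrosinase promoter switched on BRAF V600E in melanocytes, and the pups received 1 UVB dose of 6.24 kJ per square meter on the later of these days. All tumors therefore carried oncogenic BRAF and UVB exposure, and the lines differed in the melanocytic deletion of p38α, so that by design leukocytes, fibroblasts and vessels of B;p38α tumors kept the gene. Tumors were taken at endpoint size, and the age of the mice at that time is not given. RNA came from CD45+ cells, selected as leukocytes with magnetic beads and labeled immune (3 B;p38α and 3 B samples). It also came from the CD45- remainder, labeled tumor and stroma (3 and 3), and from complete tumors that were not dissociated (3 and 5).

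Matrix metalloproteinases (MMPs) are zinc enzymes made as inactive precursors that cut collagens, elastin, proteoglycans and cell surface proteins. ADAMTS proteases carry thrombospondin repeats that hold them in the matrix, where they cut proteoglycans such as versican and aggrecan or trim procollagens, and TIMPs block the active site of MMPs and of some ADAMTS and ADAM enzymes. In skin tumors macrophages, neutrophils, fibroblasts and tumor cells each contribute some of these genes, and p38 kinases and the transcription factor AP-1 are known regulators of several MMP genes.

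Values are log2 expression levels from RMA, so a difference of 1 is a doubling, and levels of different genes are not compared because each has its own probes. The samples are labeled biological replicates without a statement that they are separate animals, and p-values therefore cover only the spread among these arrays, whose number limits the precision. Array medians lay between 6.75 and 7.02. B CD45- replicate 1 had the narrowest interquartile range (2.95) and correlated with the rest of its group at a median r of 0.911 across genes. B CD45+ replicate 2 had the next narrowest range (3.41), and between B;p38α CD45+ replicates 1 and 2 r reached 0.991. The selection was partial in both directions. The 10 general leukocyte genes averaged 10.96 in B;p38α and 11.25 in B CD45+ samples, against 7.54 and 9.13 in B;p38α and B CD45- samples. In turn, 11 fibroblast genes averaged 10.74 in B;p38α and 10.59 in B CD45+ samples, against 11.27 and 11.40 in B;p38α and B CD45- samples. Of 10 pigmentation genes that define melanocytes, 7 lay in the range of olfactory receptor genes by their mean over all arrays. The 7 measured neural crest genes averaged between 10.02 and 10.47 in the 6 groups. Mapk14, the p38α gene, differed between B;p38α and B by -0.18 in CD45+ cells, -0.16 in CD45- cells and -0.27 in complete tumors, none past the test, and the sources used here do not say whether its probes lie in the deleted part, so it does not check the genotype.

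As a yardstick for low signal, 1427 olfactory, vomeronasal and trace amine receptor genes had a median of 3.84 and a 95th percentile of 5.52. Adamts3, Adamts13, Mmp1b, Mmp7, Mmp10, Mmp20 and Mmp21 stayed under 5.52 in every group mean, so the signal of 7 members stayed within the range of genes used in the nose. The other 36 members exceeded it in at least 1 group.

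Where in the tumor each member was measured was asked first, by setting both CD45+ groups against both CD45- groups. CD45+ cells had more RNA of a small set of leukocyte proteases, namely the macrophage elastase Mmp12, the gelatinase Mmp9, the neutrophil collagenase Mmp8 and the leukocyte membrane-type enzyme Mmp25. CD45- cells, labeled tumor and stroma, had more of a broader set, which included the collagenase activator Mmp14, the gelatinase Mmp2, the inhibitors Timp1, Timp2 and Timp3, and the proteoglycan and procollagen proteases Adamts4, Adamts7 and Adamts14. In all, 16 of 43 members (37.2%) passed limma's test at a Benjamini-Hochberg adjusted p under 0.05, compared with 12.2% of all named genes. Of these, 4 were higher in CD45+ cells (background 7.79% of genes) and 12 were lower (background 4.37%). With the mean of the Y-linked genes as a covariate 11 members passed, 4 higher and 7 lower, and Adamts4, Adamts7, Adamts14, Mmp2 and Timp2 did not, with adjusted p from 0.0501 to 0.0699. The share of all genes past the threshold in that covariate fit is not given here, and the background shares are those of the fit without it. The median difference over the 43 members was -0.43 and over all genes -0.08, with 36 members below 0 (background 61.4%). The arrays of the sorted populations did not overlap at 7 members (16.3%, against 7.4% of genes), 3 of them higher in CD45+ cells (background 5.78%) and 4 lower (background 1.62%). In bulk RNA a larger number of expressing cells and more RNA per cell cannot be told apart.

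Mmp12, which degrades elastin and is made mainly by macrophages, had levels of 9.25, 9.54 and 10.21 in B;p38α CD45+ samples and 11.36, 9.77 and 10.10 in B CD45+ samples. In CD45- samples it stood at 3.60, 5.55 and 5.61 in B;p38α and at 6.0, 9.20 and 6.41 in B tumors. Every CD45+ array was above every CD45- array, although B CD45- replicate 2 with 9.20 came close to the lowest of them with 9.25. The difference was 3.98 (SE 0.57, limma adjusted p = 0.000784), averaged over genotypes, but the B;p38α CD45- mean of 4.92 lay in the range of the receptor genes, so no exact fold can be read from it. All 13 macrophage and monocyte markers that were measured passed in the same direction, with a median of 2.77.

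Mmp9, a type IV collagenase stored in neutrophil granules and also secreted by macrophages, measured 7.09, 6.91 and 7.51 in B;p38α and 7.69, 7.61 and 8.0 in B CD45+ samples. Its CD45- levels were 5.65, 4.74 and 6.26 in B;p38α and 7.17, 5.73 and 5.94 in B samples, so only B CD45- replicate 1 reached into the CD45+ range. Mmp9 rose by 1.55 (SE 0.30, adjusted p = 0.00522). Mmp8, the collagenase of neutrophil granules, ranged from 5.74 to 6.05 in B;p38α and from 5.66 to 6.05 in B CD45+ samples, against 3.61 to 5.16 and 3.70 to 4.68 in B;p38α and B CD45- samples. The groups did not overlap, and the difference was 1.44 (SE 0.26, adjusted p = 0.0038). All CD45- arrays of Mmp8 lay under the 5.52 of the receptor genes and the CD45+ arrays only just above it, so the size of this difference is not exact. Mmp25, a glycolipid-anchored enzyme of leukocyte surfaces, did not overlap either. It had levels of 6.44 to 7.0 in B;p38α and 7.16 to 7.42 in B CD45+ samples, against 5.33 to 5.67 and 5.75 to 6.26 in B;p38α and B CD45- samples, a difference of 1.18 (SE 0.15, adjusted p = 0.0003). Beside these genes, 6 of 11 measured neutrophil markers rose, with a list median of 1.26. By their mean over all arrays, 4 of the 11 lay in the range of the receptor genes.

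**Figure D1:**
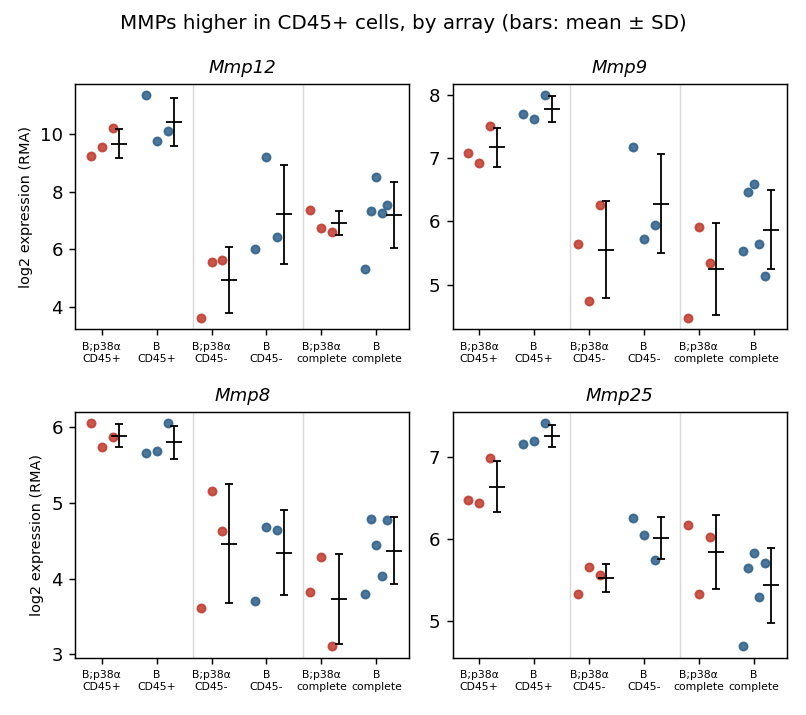
Log2 expression (RMA, y axis) of Mmp12, Mmp9, Mmp8 and Mmp25 on every array, with B;p38α left of B in CD45+ cells, CD45- cells and complete tumors. Points are arrays, and bars give the mean and SD of 3 to 5 arrays. The CD45+ arrays lie above the CD45- arrays for Mmp12, Mmp8 and Mmp25, and B CD45- replicate 1 reaches 7.17 for Mmp9.

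The members higher in CD45- cells differed by smaller steps. Mmp14, a membrane-bound collagenase that activates the precursor of MMP2, measured 11.81, 11.77 and 11.27 in B;p38α and 11.17, 10.92 and 11.04 in B CD45+ cells. In CD45- cells it measured 11.97, 12.04 and 12.47 in B;p38α and 11.81, 11.82 and 12.15 in B samples. The highest CD45+ array was just under the lowest CD45- array, and the difference was -0.71 (SE 0.15, adjusted p = 0.00848). Mmp2 was at 12.67, 12.67 and 11.64 in B;p38α and 12.33, 11.99 and 12.03 in B CD45+ samples, against 13.05, 12.69 and 12.83 in B;p38α and 12.90, 13.11 and 12.88 in B CD45- samples. It fell by 0.69 (SE 0.19, adjusted p = 0.0345), with no overlap but with gaps of a few hundredths, and kept its call in 5 of 12 fits that each left out 1 array. Timp2, which links MMP14 to the MMP2 precursor at the cell surface, moved with them by -0.38 (SE 0.10, adjusted p = 0.0321), a call kept in 3 of 12 such fits.

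Timp1, a secreted inhibitor that stromal cells make on cytokine exposure, had the largest decrease among the members that passed. Its levels were 9.82, 9.96 and 9.05 in B;p38α and 9.03, 9.0 and 9.02 in B CD45+ cells, against 10.46, 11.67 and 10.46 in B;p38α and 10.20, 9.75 and 10.25 in B CD45- cells. The difference was -1.15 (SE 0.24, adjusted p = 0.00833), and B CD45- replicate 2 lay among the B;p38α CD45+ arrays. Timp3, the matrix-bound inhibitor that also blocks ADAM17 and the aggrecanases, fell by 0.66 (SE 0.16, adjusted p = 0.0204) without overlap. Timp4, an inhibitor known mainly from heart and fat, differed by 0.22 and did not pass, so 3 of 4 inhibitors were lower in CD45+ cells.

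Among the remaining MMPs, Mmp19, a basement membrane protease, did not overlap between the sorted populations (9.17 to 9.73 on the 6 CD45+ arrays against 9.89 to 10.45 on the 6 CD45- arrays) and fell by 0.70 (SE 0.13, adjusted p = 0.00483). Mmp23, a cysteine array protease anchored in membranes, differed by -0.92 (SE 0.21, adjusted p = 0.0135), the glycolipid-anchored Mmp17 by -0.80 (SE 0.19, adjusted p = 0.0157), and Mmp11, which fibroblasts of carcinomas are known to make, by -0.73 (SE 0.15, adjusted p = 0.00742). All of these calls held whichever single array was left out. The membrane-type enzymes thus divided, with Mmp25 higher and Mmp14 and Mmp17 lower in CD45+ cells, and Mmp16 and Mmp24 not passing. Of the 4 interstitial collagenases only Mmp8 passed, since Mmp1a, Mmp1b and Mmp13 had differences between -0.26 and -0.18.

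All 7 ADAMTS proteases that cut versican or aggrecan had lower means in CD45+ cells, with differences from -0.72 to -0.43, but only the aggrecanase Adamts4 passed (-0.72, SE 0.20, adjusted p = 0.0396). Adamts14, which removes the amino-terminal propeptide of fibrillar procollagens, differed by -1.03 (SE 0.27, adjusted p = 0.0315), and Adamts7, which cleaves cartilage oligomeric matrix protein, by -0.67 (SE 0.20, adjusted p = 0.0464). Without 1 array, Adamts4 kept its call in 3 of 12 fits, Adamts14 in 4 and Adamts7 in 2. None of the 7 ADAMTS genes outside these classes passed. Beside these genes the marker lists of CD45- cell types did not move one way. Neural crest genes of melanoma cells had a median of -0.83, with 4 of 7 lower and 1 higher in CD45+ cells, and fibroblast markers a median of -0.58, with 2 of 11 lower. Endothelial markers (6 of 9, median 1.18) and pericyte and mural markers (3 of 8, median 0.95) were higher in CD45+ cells, and the part of each cell type in the members' differences was not tested.

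**Figure D2:**
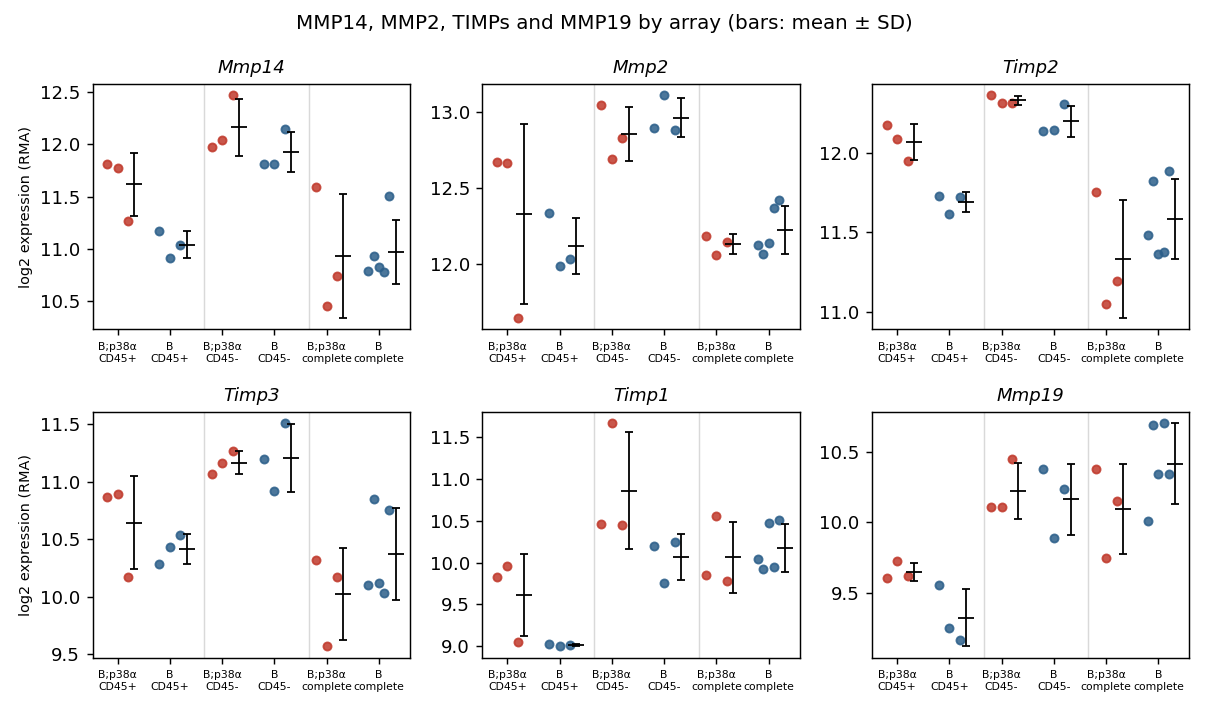
Log2 expression (RMA, y axis) of Mmp14, Mmp2, Timp2, Timp3, Timp1 and Mmp19 on every array, with B;p38α left of B in each compartment. Points are arrays and bars the mean and SD. The CD45- arrays lie above all CD45+ arrays for Mmp14, Mmp2, Timp3 and Mmp19 but not for Timp2, and B;p38α CD45- replicate 2 stands at 11.67 for Timp1.

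Of the 43 members, 9 lie in a single cluster on chromosome 9 that spans 427 kb of GRCm38.p6, in the order Mmp13, Mmp12, Mmp1b, Mmp3, Mmp1a, Mmp10, Mmp8, Mmp20 and Mmp7, with Mmp27 between Mmp8 and Mmp20. Mmp12 and Mmp8 were higher in CD45+ cells, whereas Mmp13 and Mmp1b, which flank Mmp12, and Mmp10, which lies beside Mmp8, did not pass in this comparison. Mmp1b and Mmp10 lay in the range of the receptor genes in every group mean, so a difference in them could hardly be seen. The promoters are shown because AP-1 sites beside a TATA box are the classical feature of inducible MMP genes. Each line gives the 120 bases before the RefSeq start, 5′ to 3′, on the plus strand of GRCm38.p6, and capitals mark matches to the AP-1 motif TGANTCA and to the TATA box TATAAA, both searched on both strands.
Mmp12: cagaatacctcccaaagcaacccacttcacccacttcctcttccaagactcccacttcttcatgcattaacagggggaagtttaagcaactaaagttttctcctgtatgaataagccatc
Mmp8: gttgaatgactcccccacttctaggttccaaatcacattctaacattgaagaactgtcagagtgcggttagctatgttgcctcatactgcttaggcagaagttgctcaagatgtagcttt
Mmp13: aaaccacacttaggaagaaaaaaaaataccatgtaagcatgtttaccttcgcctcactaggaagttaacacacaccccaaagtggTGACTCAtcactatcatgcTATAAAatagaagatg
Mmp3: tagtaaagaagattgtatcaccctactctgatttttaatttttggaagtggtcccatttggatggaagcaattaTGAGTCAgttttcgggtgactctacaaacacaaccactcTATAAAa
Mmp1a: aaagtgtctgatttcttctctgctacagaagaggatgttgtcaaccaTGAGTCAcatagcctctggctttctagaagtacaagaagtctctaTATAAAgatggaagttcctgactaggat
Mmp10: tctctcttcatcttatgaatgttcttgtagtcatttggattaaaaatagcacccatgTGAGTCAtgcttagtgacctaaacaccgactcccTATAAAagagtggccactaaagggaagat

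These stretches are chr9:7344277-7344396 (Mmp12), chr9:7558309-7558428 (Mmp8), chr9:7272394-7272513 (Mmp13), chr9:7445702-7445821 (Mmp3), chr9:7464021-7464140 (Mmp1a) and chr9:7502222-7502341 (Mmp10). Mmp13, Mmp3, Mmp1a and Mmp10 each hold an AP-1 match upstream of a TATA box, with 19 bases between the first bases of the motifs in Mmp13, 39 in Mmp3, 45 in Mmp1a and 34 in Mmp10, and the motifs do not overlap. The stretches of Mmp12 and Mmp8, the cluster genes that rose in CD45+ cells, hold neither. For Mmp12 this depends on the start chosen, since 1 of its 2 RefSeq promoter entries, that of a start further downstream, has an AP-1 match. Within 250 bases before the start, both motifs occur in 7 of the 29 members with a RefSeq promoter entry, all in the cluster (Mmp1a, Mmp1b, Mmp3, Mmp7, Mmp10, Mmp13 and Mmp20), and in 1.32% of 27025 genes. The AP-1 motif, with or without the TATA box, is found in 24.1% of these members and 6.85% of genes. The TATA box, with or without the AP-1 motif, is found in 31% and 13%. A match is a run of letters and not a measured binding site.

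CD45- cells were next compared with complete tumors, which had not been dissociated. Here 9 of 43 members passed and all 9 were higher in CD45- cells (20.9%, against 6.24% of genes higher and 12.7% in either direction). Of the 12 members lower in CD45+ than CD45- cells, 7 were among them, and Timp1, Mmp11, Mmp19, Mmp23 and Adamts14 did not pass. Mmp14 had the largest difference of these, 1.09 (SE 0.18, adjusted p = 0.00135), with levels from 11.81 to 12.47 on the 6 CD45- arrays against 10.45 to 11.59 on the 8 complete tumor arrays. Its groups did not overlap, which held for 4 members (9.3%, against 2.71% of genes in either direction and 1.46% higher), nor did those of Timp3 (0.99, SE 0.18, adjusted p = 0.0022), Timp2 (0.80, SE 0.12, adjusted p = 0.00109) and Mmp2 (0.73, SE 0.15, adjusted p = 0.00492). Members whose arrays overlapped but which passed were Adamts7 (0.92, SE 0.20), Adamts4 (0.92, SE 0.27), Mmp17 (0.70, SE 0.19), the versican protease Adamts9 (0.63, SE 0.14) and the epithelial protease Mmp28 (0.61, SE 0.14), with adjusted p between 0.00772 and 0.0341. Adamts4 kept its call in 12 of 20 fits without 1 array and Mmp17 in 17 of 20. Skeletal muscle markers moved with this comparison, all 9 being lower in CD45- cells with a median difference of -4.13, and their part in these differences was not tested.

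CD45+ cells differed from complete tumors at 17 of 43 members (39.5%, against 25.8% of all genes), of which 6 were higher and 11 lower (background 12.9% in each direction). The leukocyte proteases led again, with Mmp12 at 3.00 (SE 0.53, adjusted p = 0.000489), Mmp9 at 1.91 (SE 0.31, adjusted p = 0.000215), Mmp8 at 1.79 (SE 0.26, adjusted p = 6.79e-05) and Mmp25 at 1.31 (SE 0.19, adjusted p = 6.25e-05). These 4 were the members higher without overlap (9.3%, against 6% of genes). The complete tumor means of Mmp8 in both genotypes (3.74 in B;p38α and 4.37 in B), of Mmp9 in B;p38α (5.24) and of Mmp25 in B (5.44) lay in the range of the receptor genes, so the sizes of these differences are not exact. Smaller increases were seen for Mmp28 (0.49, SE 0.14, adjusted p = 0.017) and Timp2 (0.42, SE 0.12, adjusted p = 0.0187). Timp2 and Mmp28 were thus higher than in complete tumors in both sorted populations, and these comparisons share the complete tumors.

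The largest decreases in CD45+ cells against complete tumors were those of the stromelysin Mmp3 (-1.75, SE 0.49, adjusted p = 0.0138) and the membrane-type Mmp16 (-1.41, SE 0.49, adjusted p = 0.0409). Mmp3 had levels of 8.11 to 9.24 in B;p38α and 6.94 to 8.47 in B CD45+ cells, against 8.37 to 10.41 in B;p38α and 9.51 to 10.66 in B complete tumors. Only B;p38α complete tumor replicate 1 lay among the CD45+ arrays. The Mmp16 call was kept in 11 of 20 fits without 1 array. The other decreases that were named were those of Adamts12 (-0.99, SE 0.22), of Adamts20, which pigment cell precursors need in mouse skin (-0.95, SE 0.23), of Adamts17 (-0.91, SE 0.20), and of Timp1 (-0.81, SE 0.21), Mmp23 (-0.77, SE 0.19) and Mmp19 (-0.77, SE 0.14), with adjusted p from 0.000657 to 0.00873. Adamts5, Adamts10 and Mmp11 were the remaining 3. The CD45+ means of Adamts17 (5.27 in B;p38α and 4.68 in B) and of Adamts20 in B;p38α (5.41) lay in the range of the receptor genes. The sizes of their decreases are therefore not exact. Skeletal muscle markers were again lower, all 9 of them, with a median of -3.77, and their part was not tested.

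**Figure D3:**
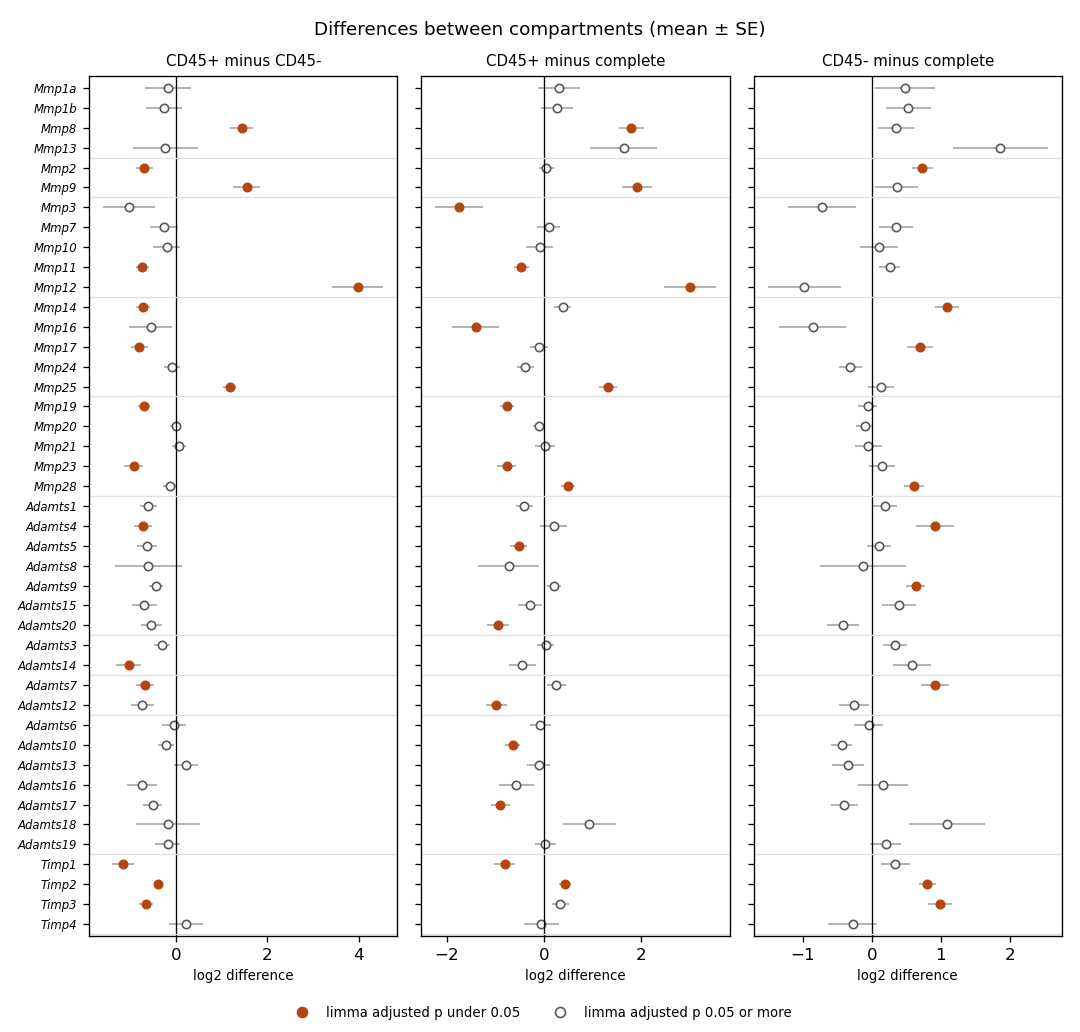
Differences in log2 expression (x axis, mean and SE) of all 43 members, grouped by class from interstitial collagenases at the top to TIMPs at the bottom, for CD45+ minus CD45-, CD45+ minus complete and CD45- minus complete, each averaged over B;p38α and B. Filled points have a limma adjusted p under 0.05: 16, 17 and 9 members. Mmp12 lies farthest to the right in the first 2 panels, and the filled points of the third panel are all above 0.

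Other genes of matrix proteolysis were described from fixed lists. Of 20 activators and surface partners of metalloproteinases, the cathepsin gene Ctss (2.76, SE 0.34), the mast cell chymase Cma1 (1.86, SE 0.44) and Ctsb (0.47, SE 0.12) were higher in CD45+ than CD45- cells, and Klk8 (-1.18, SE 0.15) was lower. The membrane-anchored MMP inhibitor Reck (-1.03, SE 0.18) and the secreted inhibitor Tfpi2 (-0.79, SE 0.16) were lower, 2 of 11 inhibitors. Of 12 ADAM genes Adam8, known from myeloid cells, was higher (1.58, SE 0.19), and Adam12 (-1.02, SE 0.16) and Adam23 (-0.75, SE 0.18) were lower. Of 6 ADAMTS-like genes, which lack the protease, Adamtsl1 (-1.15, SE 0.21) and Adamtsl5 (-0.51, SE 0.15) were lower. The 18 measured matrix substrates all had lower means in CD45+ cells (median -0.47), and Col5a1 (-1.02, SE 0.16), Nid1 (-0.69, SE 0.16) and Col1a2 (-0.63, SE 0.14) passed. Of 18 cytokines and transcription factors known to induce MMPs, 8 were higher in CD45+ cells, among them Il1b (3.18, SE 0.35), Tnf (2.85, SE 0.38) and Osm (2.63, SE 0.56).

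The same lists were read against complete tumors. In CD45- cells 6 of 18 substrates were higher, among them Fn1 (1.36, SE 0.22), Col5a1 (1.21, SE 0.20) and Col1a1 (1.07, SE 0.20), together with the proprotein convertase Furin (0.61, SE 0.11), which activates membrane-type MMPs, the integrin gene Itgav (0.59, SE 0.12) and Reck (0.59, SE 0.15). Of the inducer list 9 of 18 were higher in CD45- cells, with Fosb at 2.15 (SE 0.51), Tnf at 2.05 (SE 0.36) and Jun at 1.71 (SE 0.21), and 14 of 18 were higher in CD45+ cells, with a list median of 1.95. The AP-1 genes Fos, Fosb, Jun and Junb were higher in both dissociated populations than in undissociated tumors, and their part in the sorted values of the members was not tested. Of the cluster genes with AP-1 and TATA motifs, Mmp13 differed by 1.86 (SE 0.69, adjusted p = 0.084) in CD45- and 1.64 (SE 0.69, adjusted p = 0.0934) in CD45+ cells against complete tumors, and neither passed. Mmp3, which holds both motifs too, was lower in CD45+ cells (-1.75, adjusted p = 0.0138). In CD45- cells Mmp3 did not pass, with means of 9.22 in B;p38α and 9.31 in B against 9.67 and 10.30 in complete tumors. The other 5 cluster genes with both motifs had differences from -0.11 to 0.53 in these comparisons and did not pass. Of these, Mmp1b, Mmp7, Mmp10 and Mmp20 stayed under 5.52 in every group mean, and Mmp1a exceeded it only in B CD45- cells (5.59). A change in them could hardly be seen at this signal.

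The genotype comparison asked whether loss of p38α in melanocytic cells changed these genes in each compartment. Past limma's threshold, 0 of 43 members differed between B;p38α and B in CD45+ cells, in CD45- cells or in complete tumors, where 0%, 0.0103% and 0% of all genes passed. The values that follow describe the members with the largest mean differences.

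In CD45+ cells at an unadjusted p under 0.05, 12 of 43 differed (27.9%, against 10.8% of genes), of which 10 were higher in B;p38α (background 5.69%) and 2 lower (background 5.08%). The arrays of the genotypes did not overlap at 13 members (30.2%, against 16.5% of genes), 10 higher (background 9.16%) and 3 lower (background 7.35%). The median over members was 0.21 and over all genes 0.00. Marker lists of several cell types had lower means in B;p38α CD45+ cells although 0 of their genes passed: general leukocyte (9 of 10 below 0, median -0.33), macrophage (11 of 13, -0.25), neutrophil (7 of 11, -0.28), T cell (7 of 7, -0.37) and endothelial (9 of 9, -0.69). The general leukocyte mean was 10.75, 10.72 and 11.42 in B;p38α against 11.40, 11.13 and 11.21 in B CD45+ samples, so B;p38α replicates 1 and 2 lay under all B arrays. The fibroblast list had a median of 0.14, and the part of these cell types in the members' values was not tested.

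Adamts8, an anti-angiogenic ADAMTS protease, had the largest difference. It measured 8.69, 8.63 and 7.64 in B;p38α against 7.45, 5.51 and 6.25 in B CD45+ cells, without overlap, a difference of 1.92 (SE 0.51, adjusted p = 0.412). Adamts4 measured 8.97, 9.20 and 9.25 in B;p38α against 8.58, 7.94 and 8.24 in B CD45+ cells, again without overlap (0.88, SE 0.21, adjusted p = 0.395). Mmp10 (0.91, SE 0.36), Adamts15 (0.84, SE 0.37) and Adamts1 (0.73, SE 0.26) had overlapping arrays, with adjusted p from 0.448 to 0.468, and Mmp10 lay in the range of the receptor genes. The other members without overlap and higher in B;p38α were Mmp11, Mmp14, Mmp19, Mmp23, Adamts7, Adamts17, Timp1 and Timp2, of which all but Adamts17 had passed as lower in CD45+ than CD45- cells.

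The leukocyte proteases Mmp9, Mmp12 and Mmp25 had negative differences. Mmp9 measured 7.09, 6.91 and 7.51 in B;p38α against 7.69, 7.61 and 8.0 in B CD45+ cells (-0.60, SE 0.21, adjusted p = 0.448), and Mmp25 6.48, 6.44 and 7.0 against 7.16, 7.19 and 7.42 (-0.62, SE 0.20, adjusted p = 0.441). Neither pair of groups overlapped. Mmp12 differed by -0.75 (SE 0.44, adjusted p = 0.533), and without B CD45+ replicate 1, its highest array at 11.36, by -0.27. Mmp16 (-0.79, SE 0.63) and Adamts18 (-0.80, SE 0.77) overlapped, and Mmp8 was at 5.89 ± 0.15 in B;p38α and 5.80 ± 0.22 in B CD45+ cells (SD, n = 3 each).

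Weighting arrays by quality changed the CD45+ result. With array weights 21 members passed, 16 higher and 5 lower in B;p38α, along with 27.2% of all genes, and the members included Adamts8 (2.31, adjusted p = 0.00757), Adamts4 (0.87, adjusted p = 0.00836), Mmp9 (-0.92, adjusted p = 0.00862) and Mmp25 (-0.88, adjusted p = 0.00823). The shares of all genes higher and lower in this weighted fit are not given here. The sex of the mice is not stated in the labels, and the mean of 3 Y-linked genes went with genotype, with 3.23, 3.01 and 2.75 in B;p38α against 8.67, 4.30 and 5.36 in B CD45+ samples. With this mean as a covariate 1.28% of genes passed, and the members were Adamts8 (3.30, adjusted p = 0.0442) and Mmp16 (-2.67, adjusted p = 0.0442), named after their values were seen. The Y-linked means did not overlap between the genotypes, so genotype and Y-linked level cannot be cleanly told apart in this fit. The other 7 alternatives and the 6 fits without 1 array gave 0 members.

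In CD45- cells 8 members had an unadjusted p under 0.05 (18.6%, against 6.76% of genes), 5 of them higher in B;p38α (background 3.5%) and 3 lower (background 3.27%). The arrays of 12 members did not overlap (27.9%, against 16% of genes), 8 higher (background 10.6%) and 4 lower (background 5.36%). Adamts8 was at 9.58, 9.80 and 8.89 in B;p38α against 3.46, 8.67 and 7.40 in B CD45- cells. The lowest B;p38α array was above the highest B array, and the difference of 2.91 (SE 1.21, adjusted p = 0.675) was 1.39 without B CD45- replicate 1. Adamts4 measured 9.37, 9.90 and 10.43 against 8.58, 8.91 and 9.31 in B samples (0.97, SE 0.34), and Adamts14 measured 10.16, 10.66 and 10.21 against 8.35, 9.94 and 9.36 (1.12, SE 0.41). Both were without overlap, with adjusted p = 0.675. Adamts14 differed by 0.69 without B CD45- replicate 1.

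Mmp13, a collagenase of wound fibroblasts and bone, measured 5.84, 9.55 and 9.90 in B;p38α against 6.46, 5.42 and 7.43 in B CD45- samples. Its B;p38α arrays were split, with replicate 1 inside the B range, and the difference was 2.00 (SE 1.09, adjusted p = 0.675) with all arrays and 3.29 without that replicate. Mmp10 did not overlap and differed by 1.12 (SE 0.41, adjusted p = 0.675), with all levels at or under 5.41. Timp1 did not overlap either, with 10.46, 11.67 and 10.46 in B;p38α against 10.20, 9.75 and 10.25 in B samples.

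Adamts9, a versican protease bound to cell surfaces, was the member with the smallest unadjusted p in this compartment (0.0026). It measured 9.16, 8.73 and 8.98 in B;p38α against 9.77, 10.13 and 9.97 in B CD45- cells, a difference of -1.0 (SE 0.22, adjusted p = 0.675) without overlap. Its genotypes were also without overlap in CD45+ cells (9.06, 9.10 and 8.33 against 9.33, 9.16 and 9.17 in B, a difference of -0.39) and in complete tumors (8.46, 8.67 and 8.70 against 8.78 to 9.39 in B, a difference of -0.43). Adamts9 passed in none of the 3 compartments. Lower levels without overlap were seen at 7.35% of all genes in CD45+ cells, 5.36% in CD45- cells and 2.54% in complete tumors. The share of genes with this in all 3 at once is not given here.

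Mmp12 had the largest mean decrease in CD45- cells. Levels of 3.60, 5.55 and 5.61 in B;p38α lay below the 6.0, 9.20 and 6.41 of B samples, a difference of -2.28 (SE 0.93, adjusted p = 0.675), or -1.29 without B CD45- replicate 2. Macrophage markers moved with it: the 13 measured genes averaged 7.45 in B;p38α (array means 5.91 to 8.76) and 9.17 in B CD45- samples (8.87 to 9.32), all 13 had lower means in B;p38α and 0 passed. General leukocyte genes did the same, with 7.54 in B;p38α and 9.13 in B CD45- samples, and the part of leukocyte RNA in the Mmp12 difference was not tested. Mmp1a (-1.38, SE 0.57), Mmp16 (-1.12, SE 0.55) and Mmp9 (-0.73, SE 0.51) overlapped, with adjusted p from 0.675 to 0.686. Mmp9 differed by -0.29 without B CD45- replicate 1. The Mmp1a mean of 4.20 in B;p38α lay in the range of the receptor genes, and that of 5.59 in B was just above it.

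In complete tumors 4 members had an unadjusted p under 0.05 (9.3%, against 6.61% of genes), and 4 did not overlap (9.3%, against 4.46% of genes), all of them lower in B;p38α (background 3.76% by p and 2.54% by overlap). Adamts18 measured 3.62, 3.57 and 3.93 in B;p38α tumors against 5.66, 4.83, 4.36, 4.67 and 4.44 in B tumors, without overlap (-1.08, SE 0.28, adjusted p = 0.707). All B;p38α levels of Adamts18 and 4 of its 5 B levels lay under the 5.52 of the receptor genes, so this difference is between groups of low signal. Adamts15 (-0.70, SE 0.26, adjusted p = 0.733), Mmp3 (-0.64, SE 0.45), Mmp8 (-0.63, SE 0.31) and Mmp9 (-0.63, SE 0.40) overlapped. Mmp3 differed by 0.01 without B;p38α replicate 1. Both means of Mmp8 (3.74 in B;p38α and 4.37 in B) and the B;p38α mean of Mmp9 lay in the range of the receptor genes. In B;p38α complete tumors the median difference was -0.57 for general leukocyte genes (9 of 10 below 0) and -0.65 for macrophage genes (12 of 13). It was -0.34 for neutrophil genes (10 of 11 below 0) and 0.18 for T cell genes (5 of 7 above 0). The part of leukocytes in the Mmp8 and Mmp9 values was not tested. The members without overlap besides Adamts18 and Adamts9 were Mmp23 (8.28 to 8.47 in B;p38α against 8.49 to 9.43 in B tumors) and Adamts5 (10.66 to 10.81 against 10.94 to 11.22).

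Mmp16, a membrane-type enzyme, had the largest mean increase in complete tumors, 1.31 (SE 0.61, adjusted p = 0.763). Its B tumors were split, with 9.12 and 10.01 in replicates 1 and 4 and 7.22, 7.38 and 7.51 in the others, whereas the B;p38α tumors measured 9.69, 9.12 and 9.87. Replicates 1 and 4 are also the B tumors with a high mean of the Y-linked genes (8.93 and 9.29). The B;p38α tumors had low means of these genes, 2.99, 3.85 and 3.35. With the Y-linked mean as a covariate the Mmp16 difference in complete tumors kept its direction and did not pass. Sex is not stated in the labels, and its part in the Mmp16 values was not tested beyond that fit. Adamts8 (0.50, SE 0.53), Mmp25 (0.41, SE 0.29), Adamts17 (0.30, SE 0.24) and Mmp20 (0.27, SE 0.20) overlapped, with adjusted p from 0.852 to 0.903. Skeletal muscle markers averaged 8.40 in B;p38α (array means 5.77 to 10.78) and 10.41 in B complete tumors (10.04 to 10.90), and adipocyte markers 6.73 and 8.06. Their part in these values was not tested.

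**Figure D4:**
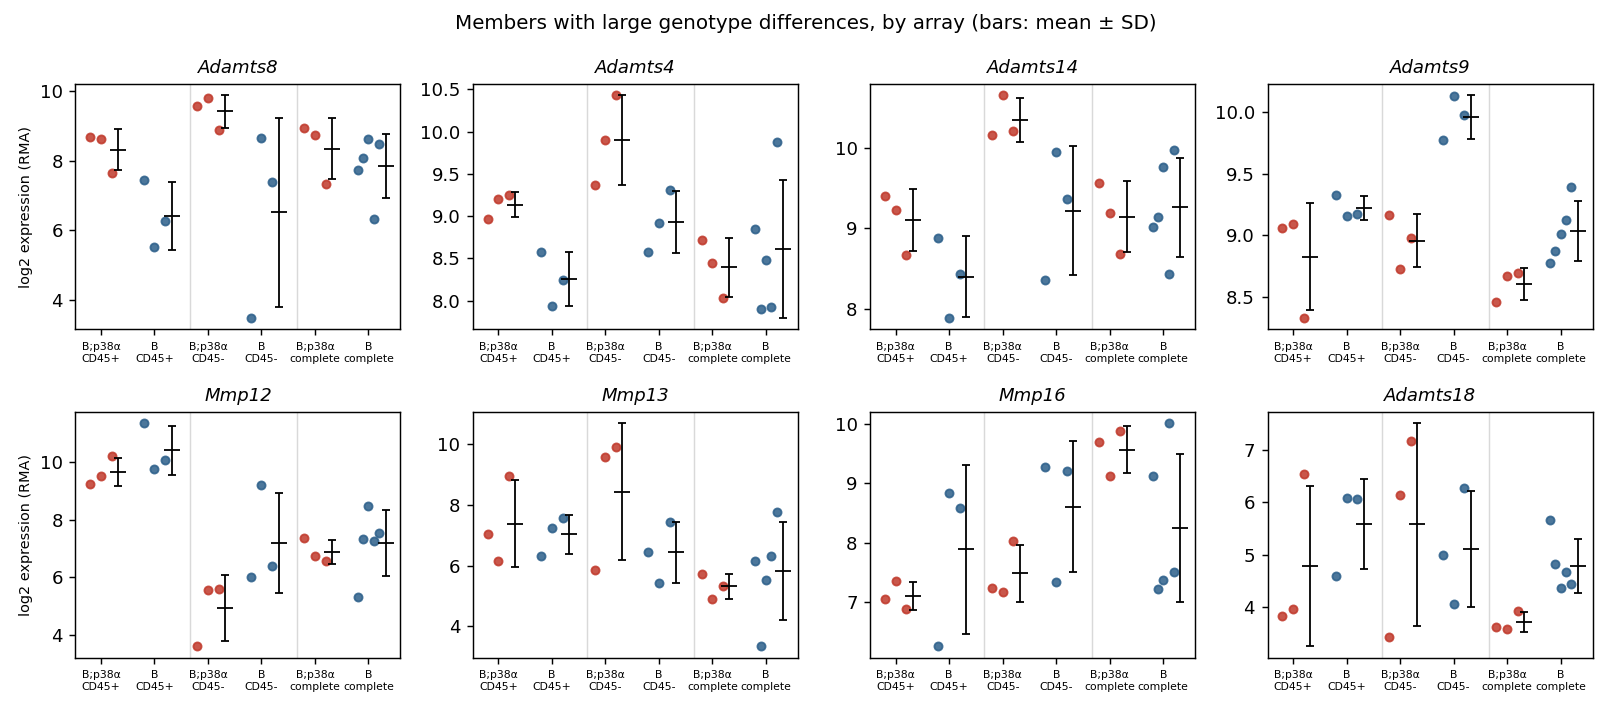
Log2 expression (RMA, y axis) of Adamts8, Adamts4, Adamts14, Adamts9, Mmp12, Mmp13, Mmp16 and Adamts18 on every array, with B;p38α left of B in each compartment. Points are arrays and bars the mean and SD. B CD45- replicate 1 stands apart at 3.46 for Adamts8, and the B;p38α arrays of Adamts9 lie below the B arrays in all 3 compartments.

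Interaction contrasts asked whether the genotype difference itself differed between compartments, and 0 of 43 members and 0% of genes passed in each of the 3. For CD45+ against CD45- cells 0 members had an unadjusted p under 0.05 (background 1.95%), and the largest values were 1.54 for Mmp12 (SE 1.14), 0.89 for Mmp1a, 0.78 for Mmp3, 0.75 for Adamts16 and 0.61 for Adamts9 on one side. On the other side stood Mmp13 with -1.65 (SE 1.44), Adamts18 with -1.28, Adamts8 with -1.0, Mmp21 with -0.62 and Mmp28 with -0.49, and each of these 10 adjusted p-values was 1. The Adamts8 differences of 1.92 in CD45+ and 2.91 in CD45- cells are therefore not shown to differ.

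For CD45+ cells against complete tumors 6 members had an unadjusted p under 0.05 (14%, against 7.22% of genes), led by Adamts15 with 1.54 (SE 0.50, adjusted p = 0.682), whose genotype difference was 0.84 in CD45+ cells and -0.70 in complete tumors. Adamts8 (1.42), Mmp3 (1.32), Mmp10 (1.12) and Adamts4 (1.10) followed, and Mmp16 (-2.10, SE 0.97, adjusted p = 0.692), Mmp25 (-1.02), Mmp1b (-0.65), Mmp1a (-0.55) and Mmp12 (-0.45) lay on the other side. For CD45- cells against complete tumors 8 members did so (18.6%, against 9.69%). Mmp13 (2.49), Adamts8 (2.41), Adamts18 (1.56), Mmp10 (1.32) and Adamts14 (1.24) had the largest positive values there and Mmp16 (-2.44, SE 0.97, adjusted p = 0.478), Mmp12 (-1.99), Mmp1a (-1.44), Mmp25 (-0.90) and Adamts19 (-0.82) the largest negative ones. Both of these contrasts share the complete tumors.

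Among the other genes of matrix proteolysis 0 passed between genotypes in any compartment. The 2 largest differences of the activator list were 1.26 for Pcsk5 (SE 0.50) and -1.08 for Ctsg (SE 0.37) in CD45+ cells, and -2.05 for Ctss (SE 0.59) and -1.46 for Cma1 (SE 0.56) in CD45- cells. Among matrix substrates Tnc differed by 1.09 (SE 0.26) and Vcan, the versican gene that ADAMTS proteases cut, by -0.88 (SE 0.23) in CD45+ cells. Of the inducers, Il6 differed by 1.43 (SE 0.24, adjusted p = 0.335) in CD45+ cells, and Il1b by -1.78 (SE 0.54) and Tnf by -1.54 (SE 0.54) in CD45- cells. The ADAMTS-like gene Thsd4 differed by 1.39 (SE 0.47) in CD45+ and 1.26 (SE 0.55) in CD45- cells.

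**Figure D5:**
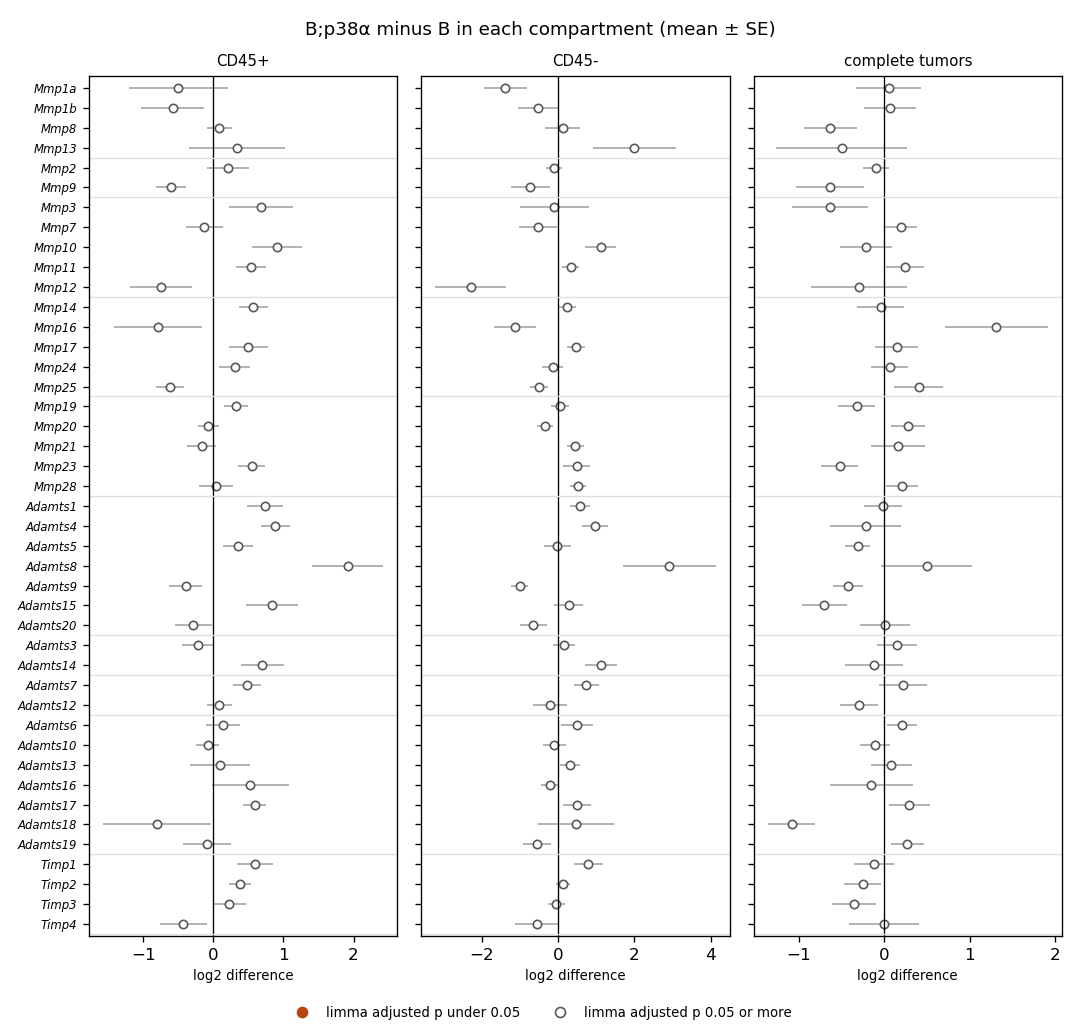
Differences in log2 expression between B;p38α and B (x axis, B;p38α minus B, mean and SE) of all 43 members in CD45+ cells, CD45- cells and complete tumors, grouped by class as in the plot of compartment differences. No point is filled because 0 members had a limma adjusted p under 0.05. Adamts8 lies farthest to the right in the CD45+ and CD45- panels, and Mmp12 farthest to the left in the CD45- panel.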

How the data were processed

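RNA was labeled with biotin and hybridised to arrays. The values, deposited on a log2 scale, came from RMA, as listed by the submitters' processing notes without a version, and were used without further normalization. Of 21244 rows, 19570 had 1 gene symbol, 0 had several and 1674 had none, and all 19570 matched RefSeq by entrez number. Where a gene had several rows, that of highest mean level was taken (19504 genes, 66 rows left out). Columns of other samples numbered 0. Groups followed the sample labels. limma 3.58.1 in R 4.3.3 (lmFit, eBayes), tested on simulated data, was fitted over all named genes, and p-values were Benjamini-Hochberg adjusted over all 19504. Simulated genotype differences of 1 were recovered for 9% of changed genes in CD45+ cells, 3% in CD45- cells and 29% in complete tumors. For differences of 2 these shares were 74%, 67% and 82%. Genotypes were compared within a compartment with its 2 groups, sorted populations over 4 groups, and sorted against complete over all 6.

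Differences were named for members past 0.05 (the 8 largest each way where more than 16 passed) and for the 5 largest each way between genotypes and in interactions. From the lists of other genes those past 0.05 could be named, or the 2 largest. Members named for arrays without overlap, Mmp13 against complete tumors, and Adamts5, Adamts10 and Mmp11 against complete tumors were chosen after their values were seen. Members and lists were chosen with earlier results of these data known.

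Promoters came from RefSeq, build GRCm38.p6, with 29 of 43 members matched and the most upstream start used. The sources used here do not name the array's own build. The alternatives changed the groups in a fit, used the replicate number as a block, dropped genes below the 30th percentile of level, repeated quantile normalization, weighted arrays, took all rows, used a trended robust variance, added the Y-linked level as a covariate, or left out each array. Leaving out both arrays of narrowest range was chosen after seeing the data. Python 3.11.15 and matplotlib 3.10.9 drew the figures.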

Additional observations from a re-analysis of the deposited data

Results flagged for a closer look

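Only the group of 5 B complete tumors was large enough for a test of single outlying arrays, and 43 members were tested in it, where chance marks about 1 group in 20. Adamts3 was at 4.03 in B complete tumor replicate 3, against 4.73 to 4.96 in the other 4 tumors, all within the range of the receptor genes. Mmp14 was at 11.51 in B complete tumor replicate 5, against 10.78 to 10.93 in the other 4. B;p38α complete tumor replicate 1 had a like level of Mmp14, 11.59.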

How the results depend on the processing

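The number of members past the threshold ranged from 11 to 18 for CD45+ minus CD45-, from 14 to 18 for CD45+ minus complete and from 7 to 10 for CD45- minus complete when each array was left out in turn, and was 0 in each such fit of the 3 genotype comparisons and 3 interactions. Without both arrays of narrowest range, a choice made after seeing the data, it was 15, 16 and 9. Array weights gave 21 members in the CD45+ genotype comparison and 4 in the interaction of CD45+ or complete with genotype (Adamts1, Mmp19, Mmp23 and Mmp25, named after their values were seen), and the Y-linked covariate gave 2 in the CD45+ genotype comparison. For the weighted interaction fit the share of all genes past the threshold is not given here, so the 4 members have no background. The replicate numbers were not shown to pair the samples. Deviations of same-numbered arrays correlated between -0.57 and 0.36, and 15 of 45 pairs exceeded 0.1. All 3 did (0.14 to 0.27) between B;p38α CD45- and B CD45+ samples, which differ in both sort and genotype. Between CD45+ and CD45- samples of the same genotype r was -0.47, -0.57 and 0.36 in B and 0.30, -0.11 and 0.35 in B;p38α. These correlations alone do not decide whether samples were paired, since fractions of the same tumor need not deviate alike. Fractions of 1 mouse share its sex, however. The Y-linked mean of B;p38α replicate 2 was 3.01 in CD45+ but 8.81 in CD45- samples. This number therefore did not pair fractions of the same mouse. Replicates 1 and 3 of B;p38α were low in both fractions. In B, replicate 2 was higher in CD45- samples too, and replicates 1 and 3 were lower. A block by replicate number thus groups some samples that were not paired. With the replicate number as a block 9 members passed for CD45+ minus CD45-, all among the 16, with 4 higher and 5 lower in place of 4 and 12, and 0 passed between genotypes. The share of all genes past the threshold in the block fits is not given here. Direction turned in 12 refits of named differences that had not passed: with the Y-linked covariate for Adamts8 in complete tumors (-0.035) and Mmp12 in CD45+ cells (0.32), and without B;p38α complete replicate 1 for Mmp3 in complete tumors (range over single arrays left out -1.01 to 0.0088). In the CD45+ against CD45- interaction Adamts8 turned with array weights (0.54), without both narrow arrays (0.081) and without B CD45- replicate 1 (range -2.07 to 0.53), and Mmp3 with array weights (-0.41) and without B;p38α CD45- replicate 1 (range -0.14 to 1.48). In the CD45+ or complete interaction Mmp1a turned without both narrow arrays (0.15) and without B CD45+ replicate 2 (range -1.22 to 0.15), and Mmp12 without B complete replicate 1 (0.016) and without B CD45+ replicate 1 (range -0.78 to 0.026). The causes were not tested. Signal near that of the receptor genes limits 7 members in every group.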

Other observations

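Members that neighbor each other outside the chromosome 9 cluster of MMP genes were Adamts1 with Adamts5 on chromosome 16 and Adamts8 with Adamts15 on chromosome 9. The neighbors Adamts8 and Adamts15 differed between B;p38α and B by 1.92 and 0.84 in CD45+ cells and by 0.50 and -0.70 in complete tumors, none past the test. Adamts1 and Adamts5 differed by -0.60 and -0.63 between CD45+ and CD45- cells, with adjusted p of 0.063 and 0.0874, so neither passed.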
